A study of Mus musculus with 10 samples.

Results

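The genes that mark the wall of brain vessels were compared between Ts65Dn mice and control littermates in adult hippocampus. The set held 34 genes, chosen by symbol: 16 of endothelial cells, 6 of transport across the blood-brain barrier and 12 of pericytes and smooth muscle, of 19938 genes with a transcript cluster of their own on the array. A transcript cluster is the group of probes that reads 1 gene or part of it, and the one with the highest mean signal stood for the gene. All but 1 could be read this way, which left 33. Ly6c1, which encodes a surface protein of the endothelium, was present only in transcript clusters that it shares with its close copy Ly6c2, and no value is given for it.

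The study took RNA from the right and left hippocampus of 10 male mice aged 16 weeks, on an F1 hybrid B6C3B background. Of these, 5 carried Ts65Dn, a freely segregating extra chromosome with a segment of mouse chromosome 16 and the centromeric end of chromosome 17, and 5 were littermates without it. Each mouse was read on 1 Affymetrix Mouse Gene 1.0 ST array, and the labels call the mice of a genotype biological replicates. Ts65Dn is a model of Down syndrome that also carries 3 copies of chromosome 17 genes with no counterpart on human chromosome 21.

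Brain capillaries are tubes of endothelial cells sealed by tight junctions, wrapped by pericytes and, at arterioles, by contractile smooth muscle. The endothelium forms the blood-brain barrier: it keeps most solutes out and carries glucose, lipids and hormones in by dedicated transporters, while export pumps send drugs and other compounds back to the blood. Endothelial cells recruit pericytes with PDGF-B, and pericytes and endothelium together maintain the barrier. In homogenised tissue these genes report on the vessel fraction as a whole, and fewer vessel cells and less RNA per vessel cell cannot be told apart.

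Values are log2 signals, on which a difference of 1 is a doubling, and each difference is Ts65Dn minus control with its standard error (SE). The median signal of the arrays lay between 7.38 and 7.41. Ts65Dn replicate 4 stood apart from the other 9 mice. It alone was highest by over 0.5 in 41 transcript clusters, against 0 to 16 in each of the others. Among these was Lcn2, an acute-phase gene that inflamed endothelium also makes, with 10.27 against 5.67 to 6.58 in the other mice. Lrg1 was at 6.91 against at most 6.08, Cp at 8.47 against at most 7.79 and Osmr at 8.59 against at most 7.98. Fcgr2b was at 7.81 against at most 7.12 and Jchain at 5.97 against at most 5.17. Rbm3 was lowest, at 9.52 against at least 10.32. Serpina3n (11.78 against at most 11.41) and Fkbp5 (9.08 against at most 8.78) were highest by less than 0.5. All these genes were named after their values were seen. Where leaving out Ts65Dn replicate 4 moved a difference of the 33 measured vessel genes or their groups by over 1.5 times, the value without it is given. For genes and lists outside these it is given only for some.

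Of the 33 measured vessel genes, 0 passed an adjusted p of 0.05 in the fit with limma, against 0.316% of the 23410 transcript clusters tested. At an unadjusted p under 0.05, 2 genes were higher in Ts65Dn mice (Eng and Rgs5), where the share over all transcript clusters was 1.73%, and 1 was lower (Tagln), where it was 1.43%. In 1 gene (Eng) every Ts65Dn mouse lay above every control, a pattern seen in 0.577% of transcript clusters, and in 0 genes did every Ts65Dn mouse lie below, against 0.308%. A rank method of the kind the study used, rewritten here, named 4 genes as higher (Eng, Ocln, Slco1a4 and Rgs5; 2.91% of all transcript clusters) and 1 as lower (Tagln; 2.47%). The differences ran from -0.19 to 0.29 with a median of 0.01, beside a median of -0.0028 over all 19938 genes. Without Ts65Dn replicate 4 there were again 0 genes past the adjusted threshold, and Eng and Rgs5 were the genes left at an unadjusted p under 0.05.

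The precision of 5 mice per genotype bounded these differences closely. All 33 intervals at 95% lay inside a 1.5-fold difference in either direction, and 28 lay inside 1.25-fold. The 5 wider ones were those of Eng (0.10 to 0.47), Vwf (-0.06 to 0.52), Cldn5 (-0.13 to 0.36), Emcn (-0.09 to 0.34) and Acta2 (-0.50 to 0.13). The mean signal of 12 genes, Sox17, Esm1 and Higd1b among them, was below the median of all transcript clusters (7.40), where RMA summaries understate a fold. In all 33 genes the intervals bound the array signal and not the amount of RNA. The 8 vessel-related genes in 3 copies, read further below, were at 1.11-fold to 1.38-fold. App, with a mean signal of 12.96, was at 1.21-fold.

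**Figure D1:**
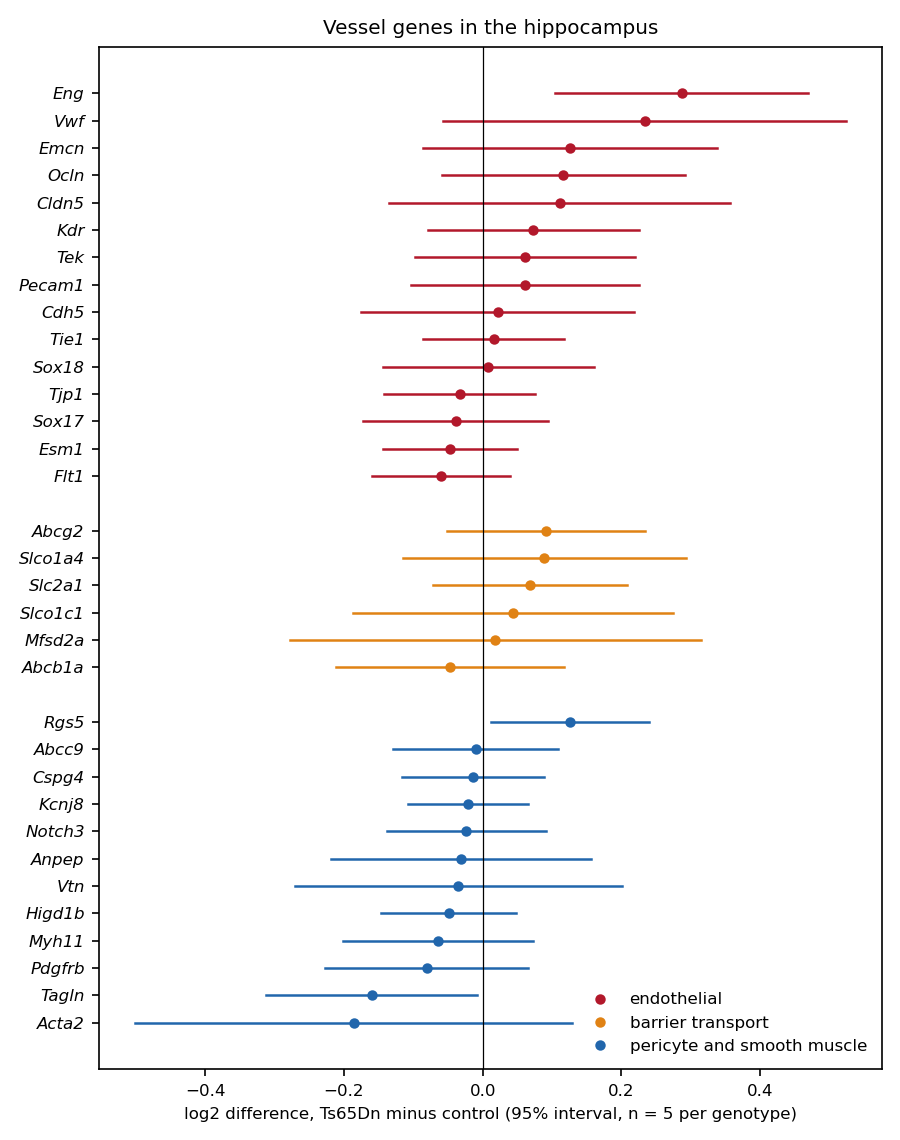
Log2 difference between Ts65Dn and control mice for the 33 measured vessel genes, grouped by cell type and ordered by size. Points are the limma estimates and lines their 95% intervals, with 5 mice per genotype. The endothelial points range from -0.06 to 0.29, the barrier transport points from -0.05 to 0.09 and the pericyte and smooth muscle points from -0.19 to 0.13.

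The endothelial genes lay slightly above 0 more often than below it, where 47.6% of the differences of all 19938 genes were positive. Genes of a group were read in the same mice, so their signs are not separate observations. Of the 15 measured, 11 differences were positive and 4 negative, with a median of 0.06. The widest was that of Eng (chr2:32646595-32682669 in GRCm38), which encodes endoglin, an endothelial co-receptor for ligands of the TGF-beta family. The Ts65Dn mice read 9.32, 9.38, 9.74, 9.26 and 9.53 and the controls 9.22, 9.14, 9.18, 9.04 and 9.22. The groups did not overlap, although Ts65Dn replicate 4 lay only just above the highest control and replicate 3 well above the rest. The difference of 0.29 ± 0.08 (SE) was a 1.22-fold higher signal, with an unadjusted p of 0.0052 and an adjusted p of 0.737. Leaving out Ts65Dn replicate 4 widened it to 0.33 (adjusted p = 0.404), and leaving out replicate 3 narrowed it to 0.21 (adjusted p = 0.757).

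Vwf encodes von Willebrand factor, the clotting protein that endothelial cells store and release. Its signal was 7.44, 7.49, 7.85, 8.16 and 7.50 in Ts65Dn mice and 7.22, 7.49, 7.47, 7.47 and 7.62 in controls. Ts65Dn replicates 3 and 4 were above all controls and the other three lay among them. The difference was 0.23 ± 0.13 (SE; adjusted p = 1.00), and 0.12 without replicate 4.

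Ocln encodes occludin, a membrane protein of tight junctions that epithelia also make. It read 7.71, 7.81, 7.74, 7.85 and 7.90 in Ts65Dn mice against 7.48, 7.69, 7.58, 7.71 and 7.97 in controls. Every Ts65Dn mouse was above 4 of the 5 controls, and control replicate 5 was above all of them. The difference was 0.12 ± 0.08 (SE; adjusted p = 1.00) and widened to 0.19 when control replicate 5 was left out, at an unadjusted p under 0.05.

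The other 12 measured endothelial genes had differences from -0.06 to 0.13. Pecam1 and Cdh5, the adhesion molecules of endothelial contacts, had differences of 0.06 ± 0.08 and 0.02 ± 0.09 (SE). The VEGF receptor Kdr was at 0.07 ± 0.07 and Flt1, the receptor that also acts as a VEGF trap, at -0.06 ± 0.05. Tek, the angiopoietin receptor, was at 0.06 ± 0.07 and its partner Tie1 at 0.02 ± 0.05. Of the junction genes, Cldn5, the main claudin of the barrier, was at 0.11 ± 0.11 and the scaffold gene Tjp1 at -0.03 ± 0.05. Emcn, a sialomucin of capillaries and veins, was at 0.13 ± 0.10. The endothelial transcription factor genes Sox17 and Sox18 were at -0.04 ± 0.06 and 0.01 ± 0.07, and Esm1, a marker of sprouting tip cells, at -0.05 ± 0.04. In all 12 of these genes and in Vwf and Ocln the genotypes overlapped. Without Ts65Dn replicate 4, Pecam1 was at 0.02, Cdh5 at 0.07, Tek at 0.11, Tie1 at 0.04, Tjp1 at -0.06 and Sox17 at -0.0080.

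The promoter of Eng is shown beside those of Flt1 and Emcn, the other measured endothelial genes with 2 motif matches, and of the pericyte gene Rgs5, since Erg and Ets2, which encode transcription factors of the ETS family, lie in 3 copies in these mice. ETS factors bind sites with a GGAA core, which are common in endothelial promoters. The windows below hold the 250 bases before the annotated start, 5′ to 3′ on the strand of the gene, from RefSeq on GRCm38.p6, with AGGAAG or its reverse complement CTTCCT in capitals. They are Eng at chr2:32646345-32646594 (plus strand), Flt1 at chr5:147726012-147726261 (minus strand), Emcn at chr3:137340828-137341077 (plus strand) and Rgs5 at chr1:169655251-169655500 (plus strand).
Eng: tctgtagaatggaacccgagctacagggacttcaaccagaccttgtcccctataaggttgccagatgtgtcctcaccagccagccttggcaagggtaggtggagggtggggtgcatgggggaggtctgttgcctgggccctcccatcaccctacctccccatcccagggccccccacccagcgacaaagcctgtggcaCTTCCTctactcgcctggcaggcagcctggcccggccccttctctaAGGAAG
Flt1: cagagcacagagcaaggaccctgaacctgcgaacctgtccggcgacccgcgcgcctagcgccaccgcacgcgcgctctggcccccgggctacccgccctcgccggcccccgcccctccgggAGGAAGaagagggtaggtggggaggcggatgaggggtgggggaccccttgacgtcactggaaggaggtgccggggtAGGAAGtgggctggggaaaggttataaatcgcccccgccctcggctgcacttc
Emcn: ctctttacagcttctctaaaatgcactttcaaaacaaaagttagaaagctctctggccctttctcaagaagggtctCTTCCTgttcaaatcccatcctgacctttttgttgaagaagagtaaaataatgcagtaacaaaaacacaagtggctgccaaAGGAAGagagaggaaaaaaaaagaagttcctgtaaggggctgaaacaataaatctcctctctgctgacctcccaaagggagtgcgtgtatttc
Rgs5: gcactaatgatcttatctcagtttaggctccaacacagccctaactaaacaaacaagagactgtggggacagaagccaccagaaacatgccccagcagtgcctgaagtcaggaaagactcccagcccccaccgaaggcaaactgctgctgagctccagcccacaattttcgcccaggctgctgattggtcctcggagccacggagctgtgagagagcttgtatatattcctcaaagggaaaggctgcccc

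In the Eng window the matches begin 52 and 6 bases before the start, in that of Flt1 129 and 53 bases, and in that of Emcn 174 and 93 bases. The Rgs5 window holds 0 matches to AGGAAG or CTTCCT, although the shorter GGAA core is present in it. The motif was searched on both strands in the windows of 25 of the 34 genes that the table held, and 9 had a match: 5 of 11 endothelial genes (Cldn5, Tek, Kdr, Ocln, Tjp1 and Esm1 had 0), 4 of 6 barrier transport genes and 0 of 8 pericyte and smooth muscle genes. Over all 32851 windows of the same length 29.5% held it and 6.25% held it at least 2 times, and over 27025 genes 32.3% held it. Of the 3 endothelial genes shown, Eng was at a difference of 0.29, Emcn at 0.13 and Flt1 at -0.06, and Rgs5, with 0 matches, was at 0.13. A match here is a run of letters and not a bound site.

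**Figure D2:**
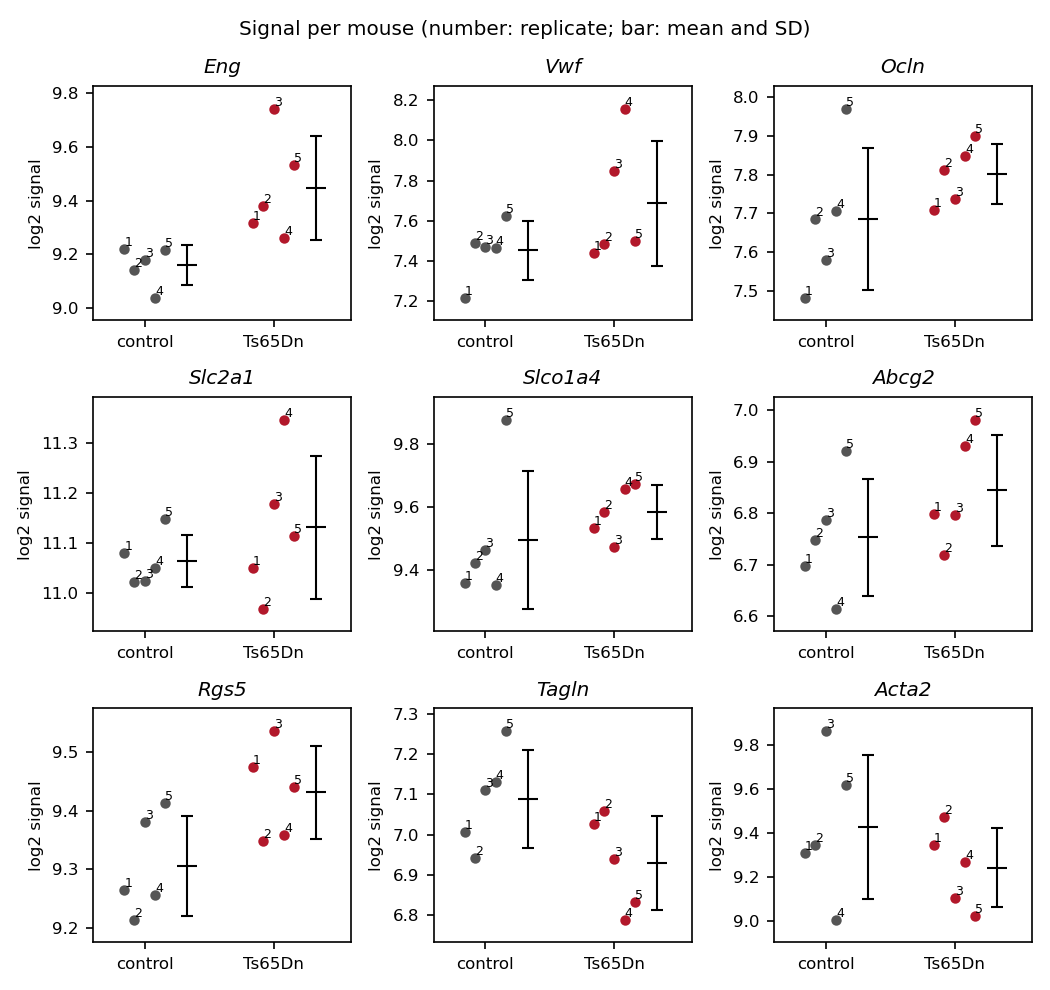
Log2 signal of each mouse for 9 vessel genes: 3 endothelial (top), 3 of barrier transport (middle) and 3 of pericytes and smooth muscle (bottom). Points are mice with their replicate number, bars are the mean and SD of 5 mice, and each panel has its own scale. Only the Eng panel has no overlap between the genotypes, with the lowest Ts65Dn mouse at 9.26 and the highest control at 9.22.

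The 6 genes of barrier transport had 5 positive differences and 1 negative, with a median of 0.06 and a range of -0.05 to 0.09, and each of the 6 had an adjusted p of 1.00. Without Ts65Dn replicate 4 the median was 0.01. Slc2a1 encodes GLUT1, the glucose transporter of the barrier, which astrocytes also express. It read 11.05, 10.97, 11.18, 11.35 and 11.11 in Ts65Dn mice and 11.08, 11.02, 11.02, 11.05 and 11.15 in controls, a difference of 0.07 ± 0.06 (SE). The highest mouse was Ts65Dn replicate 4, without which the difference was 0.01. Mfsd2a, the transporter of docosahexaenoic acid, showed the same mouse more sharply. Its signal was 10.48 there and 9.69 to 10.11 in the other 9 mice, and the difference of 0.02 ± 0.13 (SE) became -0.12 without it.

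Slco1a4 encodes an organic anion transporter of the barrier. Its values were 9.53, 9.58, 9.47, 9.66 and 9.67 in Ts65Dn mice and 9.36, 9.42, 9.46, 9.35 and 9.88 in controls. All 5 Ts65Dn mice were above 4 controls and below control replicate 5. The difference of 0.09 ± 0.09 (SE) became 0.18 without that control, at an unadjusted p under 0.05 and an adjusted p of 0.635.

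The export pump gene Abcg2 was at 6.80, 6.72, 6.80, 6.93 and 6.98 in Ts65Dn mice and 6.70, 6.75, 6.79, 6.62 and 6.92 in controls. These overlapped, with a difference of 0.09 ± 0.07 (SE). Abcb1a, which encodes the pump P-glycoprotein, was at -0.05 ± 0.07, and Slco1c1, a thyroid hormone transporter that astrocytes also express, at 0.04 ± 0.11. Without Ts65Dn replicate 4 they were at -0.09 and 0.02.

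Where 47.6% of the differences of all 19938 genes were positive, those of pericyte and smooth muscle genes were negative in 11 of 12, with a median of -0.03. The exception was Rgs5 (chr1:169655501-169695813), a regulator of G protein signalling that pericytes express strongly. Its signal was 9.47, 9.35, 9.54, 9.36 and 9.44 in Ts65Dn mice and 9.27, 9.21, 9.38, 9.26 and 9.41 in controls. The genotypes overlapped through control replicates 3 and 5. The difference was 0.13 ± 0.05 (SE), or 1.09-fold, with an unadjusted p of 0.0333 and an adjusted p of 1.00. Its unadjusted p was no longer under 0.05 without Ts65Dn replicate 1, 3 or 5, or without control replicate 1, 2 or 4.

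The lowest differences of this group were those of Acta2 and Tagln, genes of the contractile apparatus. Tagln (chr9:45929628-45936058), which encodes the actin-binding protein transgelin of smooth muscle, read 7.03, 7.06, 6.94, 6.79 and 6.83 in Ts65Dn mice and 7.01, 6.94, 7.11, 7.13 and 7.26 in controls. Ts65Dn replicates 3, 4 and 5 were below all controls, replicate 3 only just. Its difference was -0.16 ± 0.07 (SE; unadjusted p = 0.0411; adjusted p = 1.00), and -0.12 without Ts65Dn replicate 4, at an unadjusted p over 0.05.

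Acta2, the gene of smooth muscle actin, read 9.34, 9.47, 9.10, 9.27 and 9.02 in Ts65Dn mice and 9.31, 9.34, 9.87, 9.004 and 9.62 in controls. The controls held both the highest mouse and the lowest, and the difference was -0.19 ± 0.14 (SE; adjusted p = 1.00). It became -0.29 without control replicate 4, at an unadjusted p under 0.05, and -0.08 without control replicate 3. Myh11, the heavy chain of smooth muscle myosin, was at -0.06 ± 0.06, less negative than the pericyte gene Pdgfrb (-0.08). The mean of Acta2, Tagln and Myh11 per mouse was 7.65 ± 0.118 (SD, n = 5) in Ts65Dn mice and 7.79 ± 0.166 (SD, n = 5) in controls, and the ranges overlapped. Of further smooth muscle genes, read in the wider lists, Myl9 was at -0.15 and Mylk at -0.06. Cnn1 and Tpm2 were each at -0.03, Myocd at 0.0015, Des at 0.02 and Lmod1 at 0.04.

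The remaining genes of this group had differences from -0.08 to -0.01. Pdgfrb, the receptor for PDGF-B, was at -0.08 ± 0.07 and Notch3, the Notch receptor of mural cells, at -0.02 ± 0.05. Kcnj8 and Abcc9, which encode the pore and the regulatory subunit of a potassium channel gated by ATP, were at -0.02 ± 0.04 and -0.01 ± 0.05. Cspg4, which oligodendrocyte precursors also express, was at -0.01 ± 0.05 and the peptidase gene Anpep at -0.03 ± 0.09. Vtn, encoding vitronectin, was at -0.04 ± 0.11 and Higd1b at -0.05 ± 0.04. Without Ts65Dn replicate 4, Pdgfrb was at -0.03 and Abcc9 at -0.02, and Kcnj8 and Notch3 turned to 0.0042 and 0.02.

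Means over each group were also taken per mouse, and their offsets restate the differences of the same genes. The endothelial mean was 8.04 ± 0.0314 (SD, n = 5) in Ts65Dn mice, from 8.01 to 8.10, and 7.98 ± 0.0840 (SD, n = 5) in controls, from 7.91 to 8.12. Every Ts65Dn mouse lay above 4 controls, and control replicate 5 lay above them all. The difference of 0.06 was no larger than the spread between mice within a genotype (SD 0.06), and it was 0.07 without Ts65Dn replicate 4. Without control replicate 5 it was 0.10.

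The mean of barrier transport was 9.23 ± 0.115 against 9.19 ± 0.102 (SD, n = 5 each), a difference of 0.04. Ts65Dn replicate 4 was the highest at 9.43, and without it the difference was -0.0070. Without control replicate 5 it was 0.09. The pericyte and smooth muscle mean was 7.85 ± 0.0407 in Ts65Dn mice and 7.89 ± 0.0779 in controls (SD, n = 5 each). That difference of -0.05 was smaller than the spread between mice, and it was -0.03 without Ts65Dn replicate 4 and -0.02 without control replicate 5.

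The endothelial mean minus the pericyte and smooth muscle mean, taken within each mouse, was computed after these values had been seen. It was 0.15, 0.13, 0.24, 0.23 and 0.22 in Ts65Dn mice and 0.09, 0.09, 0.03, 0.09 and 0.13 in controls. The genotypes did not overlap, although the closest mice, Ts65Dn replicate 2 at 0.133 and control replicate 5 at 0.131, were nearly level. Because probes of different genes are not on 1 scale, the value itself has no meaning and only the offset between mice does, which was 0.11. It was 0.10 without Ts65Dn replicate 4 and 0.12 without control replicate 5. No test is given for it.

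**Figure D3:**
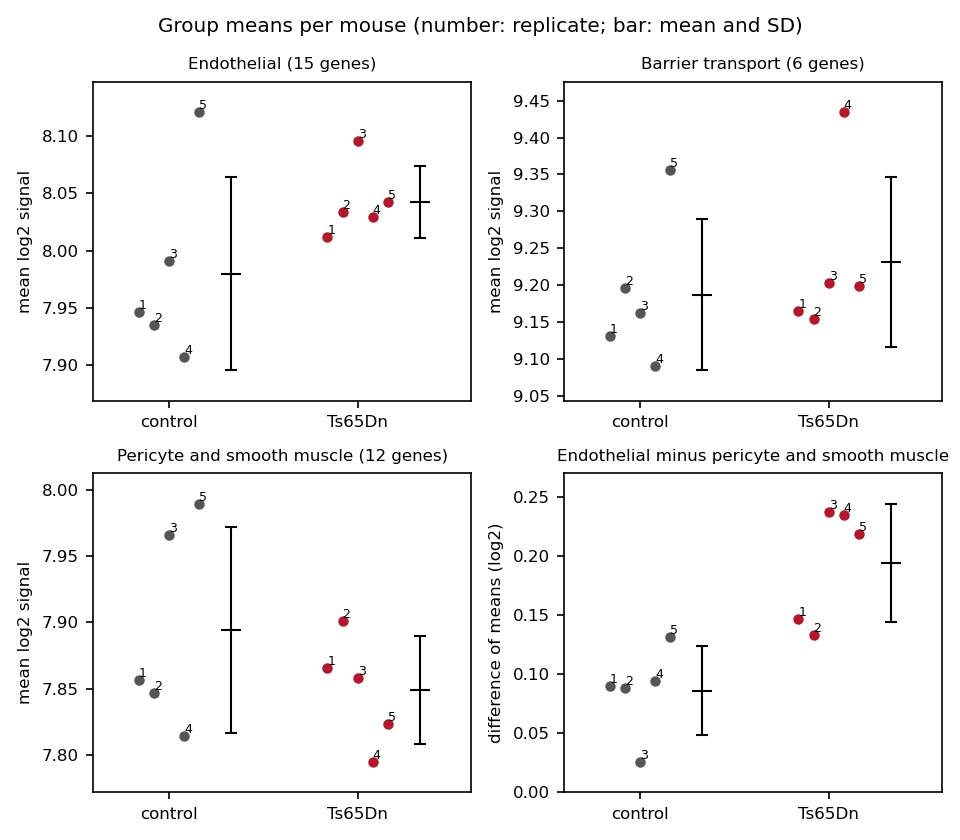
Mean log2 signal per mouse over the 15 endothelial, 6 barrier transport and 12 pericyte and smooth muscle genes, and the endothelial mean minus the pericyte and smooth muscle mean. Points are mice with their replicate number, and bars are the mean and SD of 5 mice. The 3 means overlap between genotypes, and the difference of means runs from 0.133 to 0.237 in Ts65Dn mice and from 0.0255 to 0.131 in controls.

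The controls differed from each other across most vessel genes. Control replicate 5 was above the control mean in 29 of 33 genes and was the highest of the 10 mice in 11. Control replicate 4 was below it in 22 genes and was the lowest of the 10 mice in 11, and control replicate 2 was below it in 23. Each Ts65Dn mouse was above the Ts65Dn mean in 16 to 20 genes. Ts65Dn replicate 4 was the highest mouse for 5 genes, among them Vwf, Slc2a1, Mfsd2a and Pecam1, and the lowest for 5, among them Tagln, Pdgfrb and Notch3.

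**Figure D4:**
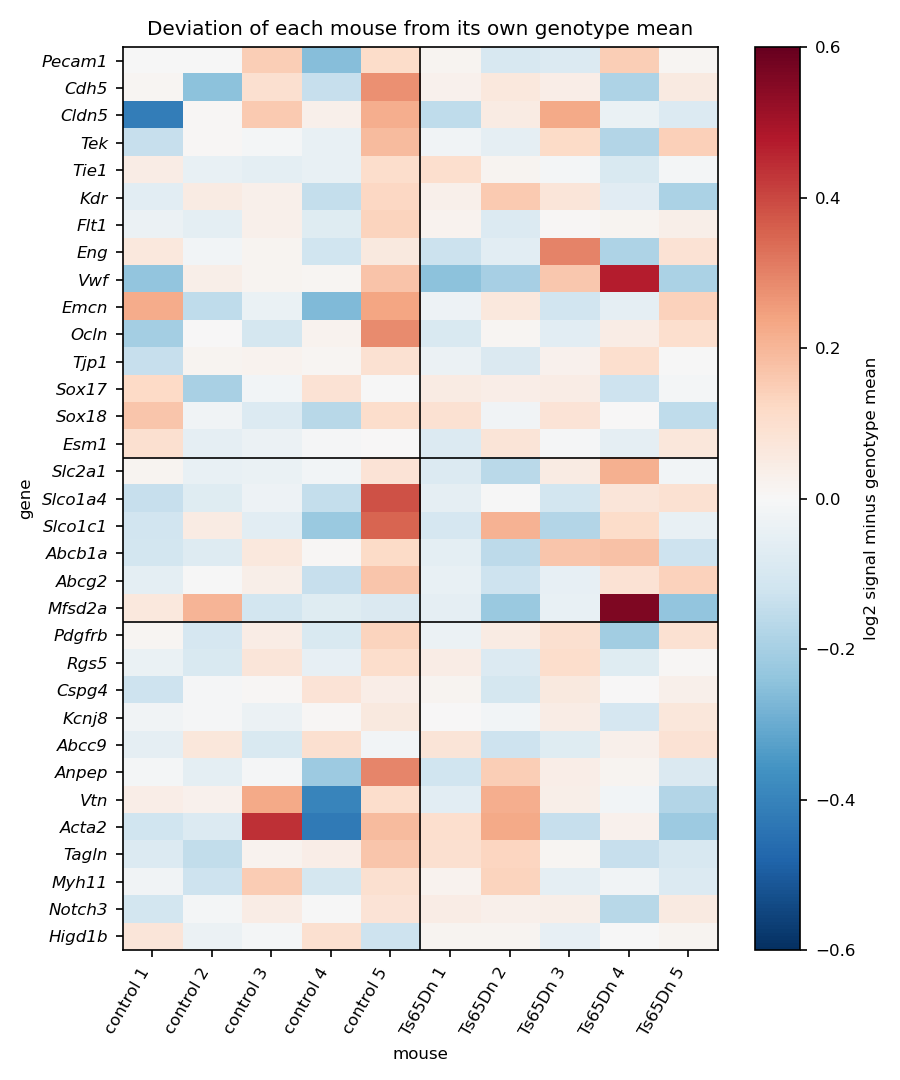
Deviation of each mouse from the mean of its own genotype in log2 signal, for the 33 vessel genes in rows (endothelial, barrier transport, then pericyte and smooth muscle, parted by lines) and the 10 mice in columns. Red is above the mean and blue below. Control replicate 5 is red in 29 rows, and Ts65Dn replicate 4 has the deepest reds of the Ts65Dn mice at Mfsd2a and Vwf.

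Markers of other tissues and cells were read in the same arrays. The choroid plexus, a vascular tissue next to the hippocampus, varied most: the mean of its 11 measured markers was 8.10 ± 1.26 (SD, n = 5; 6.79 to 9.66) in Ts65Dn mice and 7.83 ± 1.06 (SD, n = 5; 6.86 to 9.36) in controls. All 11 differences were positive and 0 had an unadjusted p under 0.05 in limma. The offset of the means was 0.28, and 0.03 without Ts65Dn replicate 4. Clic6, in 3 copies, is among the 11, and over the other 10 the offset was 0.24. With that mean as a covariate, 0 vessel genes passed the adjusted threshold and the same 3 (Eng, Rgs5 and Tagln) were at an unadjusted p under 0.05. The mean of 7 microglial markers was 9.28 ± 0.171 against 9.18 ± 0.0915, with Ts65Dn replicate 4 the highest at 9.56, and their differences were positive in 6 of 7. The offset was 0.10, and 0.04 without that mouse.

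The other lists varied less. The mean of 12 meningeal and fibroblast markers ran from 7.28 to 7.81 in Ts65Dn mice and from 7.09 to 7.78 in controls, and that of 6 perivascular macrophage markers from 5.54 to 5.71 and from 5.56 to 5.78. The mean of 7 astrocyte markers was 11.02 against 11.05, that of 7 neuronal markers, which define the tissue, 12.27 against 12.25, and that of 7 oligodendrocyte precursor markers 8.948 against 9.005. Of the precursor markers 6 of 7 differences were negative, the exception being Olig2, which is in 3 copies, at 0.20. Over the 6 in 2 copies the mean was 8.88 ± 0.0665 against 8.98 ± 0.0385 (SD, n = 5 each), an offset of -0.10. Among these genes 2 were lower at an unadjusted p under 0.05, Cspg5 and C1ql1, beside 1.43% of all transcript clusters. Of 8 blood genes 2 were measured, Alas2 at 0.17 ± 0.12 and Slc4a1 at -0.06 ± 0.07. The part of these cells in the differences of the vessel genes was not tested beyond the choroid plexus covariate.

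None of the 34 genes is in 3 copies. Cldn5 (chr16:18776847-18778262) and Myh11 (chr16:14194527-14292188) are on chromosome 16 but outside the trisomic segment, which spans chr16:84718281-97962627, and Notch3 (chr17:32120820-32166896) is outside the segment of chromosome 17 (chr17:3064318-8986648). Another 8 genes with roles in vessels are in the chromosome 16 segment. All 8 had positive differences, with a median of 0.30 and a range of 0.15 to 0.46 (1.11-fold to 1.38-fold). In limma 6 rose past an adjusted p of 0.05, beside 0.316% of all transcript clusters. In each of the 6 every Ts65Dn mouse lay above every control, a pattern seen in 0.577% of transcript clusters. Without Ts65Dn replicate 4, 3 passed the adjusted threshold, and the same number without replicate 2. The rank method named all 8 as higher, beside 2.91% of all transcript clusters.

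Jam2, a junctional adhesion molecule of endothelial tight junctions, rose by 0.46 ± 0.05 (SE; adjusted p = 0.0023). Its signal was 10.54, 10.56, 10.62, 10.61 and 10.69 in Ts65Dn mice and 10.18, 9.98, 10.19, 10.09 and 10.24 in controls. Rcan1, an inhibitor of calcineurin that VEGF induces in endothelium, rose by 0.46 ± 0.06 and the ETS factor gene Ets2 by 0.37 ± 0.05. The proteases of the matrix Adamts1, which has anti-angiogenic activity, and Adamts5 rose by 0.32 ± 0.06 and 0.29 ± 0.05. App, the amyloid precursor whose product can deposit in vessel walls, rose by 0.27 ± 0.04.

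Erg, the ETS factor most particular to endothelium, did not pass the adjusted threshold in limma. Its signal was 7.41, 7.24, 7.25, 7.21 and 7.06 in Ts65Dn mice and 7.16, 6.92, 7.24, 6.95 and 6.94 in controls, and the genotypes overlapped. The difference of 0.19 ± 0.08 (SE) had an unadjusted p of 0.0311 and an adjusted p of 1.00. Runx1, which acts in blood-forming endothelium, was at 0.15 ± 0.07 (adjusted p = 1.00). The rank method named both Erg and Runx1 as higher. Their mean signals (7.14 and 6.52) were below the median of all transcript clusters (7.40), where RMA summaries understate a fold. So was that of Adamts5 (5.71), which passed. Of these 8 genes, Erg is the one whose expression marks endothelial cells most closely, while the others are also expressed by other brain cells.

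**Figure D5:**
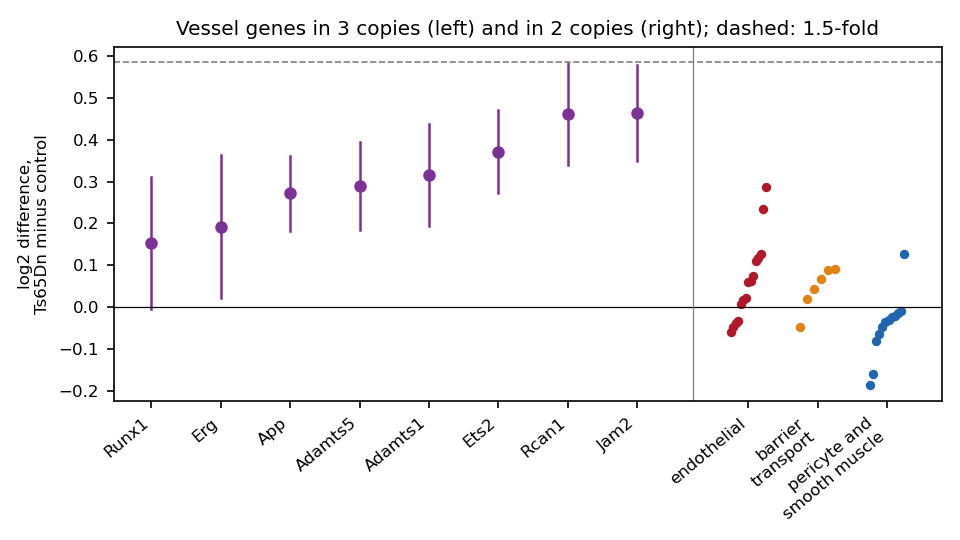
Log2 difference between Ts65Dn and control mice for 8 vessel-related genes in 3 copies (left, with 95% intervals) and for the 33 vessel genes in 2 copies, by group (right, points only). The dashed line is a 1.5-fold difference. The genes in 3 copies lie between 0.15 and 0.46 and the genes in 2 copies between -0.19 and 0.29.

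Wider vessel pathways were read from 6 further lists with 135 genes, 131 of them measured and 0 in 3 copies. In limma 0 passed the adjusted threshold. At an unadjusted p under 0.05, 3 of the 131 were higher, beside 1.73% of all transcript clusters, and 5 were lower, beside 1.43%. The median difference was -0.0037. In 2 genes, Jag1 and Atp13a5, every Ts65Dn mouse lay below every control, beside 0.308% of all transcript clusters, and in 0 did every one lie above (0.577%). The rank method named 5 as higher and 12 as lower, beside 2.91% and 2.47%.

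Among 42 genes of ligands, receptors and their signalling partners, 17 differences were positive and 25 negative. Pdgfb, the endothelial signal that recruits pericytes, was at -0.17 ± 0.06 (unadjusted p = 0.0118), beside -0.08 for its receptor gene Pdgfrb (-0.03 without Ts65Dn replicate 4). It read 8.53, 8.72, 8.49, 8.59 and 8.73 in Ts65Dn mice and 8.79, 8.88, 8.82, 8.73 and 8.69 in controls. These overlapped through control replicate 5. Jag1, a Notch ligand, was at -0.15 ± 0.05 (unadjusted p = 0.0123), from 7.06 to 7.25 in Ts65Dn mice and from 7.27 to 7.48 in controls. Vegfd, a VEGF family ligand, and Apln, the tip cell peptide apelin, were at 0.22 ± 0.08 and 0.19 ± 0.07 (unadjusted p = 0.0184 and 0.0237). The adjusted p of all 4 was 1.00.

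Of 28 measured transcription factor, junction and adhesion genes of endothelium, 0 were higher and 1 was lower at an unadjusted p under 0.05. The shares over all transcript clusters were 1.73% higher and 1.43% lower. The lower gene was Foxc1, a forkhead factor of vessels and mural cells, at -0.14 ± 0.06 (unadjusted p = 0.0401). Cav1, the caveolin of endothelial vesicles, was at 0.21 ± 0.11 (unadjusted p = 0.0667). Among 10 genes that part arteries from veins, Slc38a5, a glutamine transporter of venous and capillary endothelium, was at 0.30 ± 0.07 (unadjusted p = 0.00103; adjusted p = 0.225). Its signal was 7.40, 7.52, 7.50, 7.53 and 7.21 in Ts65Dn mice and 7.19, 7.02, 7.15, 7.04 and 7.26 in controls, so that 4 Ts65Dn mice lay above all controls and replicate 5 did not. Gja5, an arterial connexin, was at -0.05 ± 0.06.

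Of 15 other barrier transport genes, 13 differences were positive and 2 negative, with a median of 0.02, and 0 had an unadjusted p under 0.05 in limma. The lowest p was that of Slc16a4, a monocarboxylate transporter, at 0.24 ± 0.12 (unadjusted p = 0.0637), and Slc16a1, the lactate transporter MCT1, was at -0.17 ± 0.11. In 22 other genes of pericytes and smooth muscle, 8 differences were positive and 14 negative. Atp13a5, a transport ATPase that marks brain pericytes, was at -0.22 ± 0.05 (unadjusted p = 0.00096; adjusted p = 0.216). It read 7.88, 7.79, 7.92, 7.89 and 8.02 in Ts65Dn mice and 8.14, 8.06, 8.14, 8.04 and 8.23 in controls, with no overlap. Gucy1a1, a subunit of the nitric oxide receptor, was at -0.18 ± 0.08 (unadjusted p = 0.0495). The 14 genes of the vascular basement membrane lay between -0.08 and 0.07, and 0 had an unadjusted p under 0.05 in limma. Lama5 and Sparc, with the lowest p of these, were at -0.07 ± 0.07 and -0.08 ± 0.08.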

How the data were processed

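RNA of 10 hippocampi was hybridised to 1 array per mouse, 5 Ts65Dn and 5 control, grouped by the labels. The authors deposited log2 signals after RMA (background correction, quantile normalization and probe summary), which the study's notes name with limma and mm10, without versions. Of 35556 transcript clusters, the 23410 with a gene symbol in the platform annotation were tested. The difference between genotypes was fitted per transcript cluster in R 4.3.3 with limma 3.58.1 (lmFit, then eBayes), with no covariate and two-sided tests, with Benjamini-Hochberg adjustment over all 23410. Adjusted and unadjusted p-values and SE are from this fit, which was tested on simulated data. The rank method follows FCROS (25 pairs of arrays, a fraction of 0.3 of the ranks trimmed from each end) and was rewritten here. It fits a normal curve to the trimmed mean ranks of all transcript clusters and names those with a probability under 0.025 or over 0.975. Array number limits the precision, to 5 mice per genotype. Members and lists were chosen with earlier results of these data known. Values per mouse are given for members at an unadjusted p under 0.05 and, in each group, the 3 with the lowest p and the 2 with the widest difference. Of the other lists the 2 to 4 genes with the lowest p are named, and beside Acta2, Tagln and Myh11 further smooth muscle genes. Marker lists were choroid plexus, meninges, perivascular macrophages, blood, microglia, astrocytes, oligodendrocyte precursors and neurons. Alternatives were the transcript clusters tested, 3 normalizations, variance models, array weights, the replicate block, the choroid plexus covariate, other summaries and each mouse left out. Plots used matplotlib 3.10.9.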

Additional observations from a re-analysis of the deposited data

Results flagged for a closer look

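Within 88 groups of 5 mice, 1 mouse lay far from the other 4 in 7 groups, by the ratio of its gap to the range of the group (over 0.71). Chance alone gives about 1 in 20 groups. In 4 of the 7 the mouse was Ts65Dn replicate 4. It was low for Cdh5 at 8.54 (others 8.75 to 8.79) and for Notch3 at 7.10 (others 7.30 to 7.32), and high for Mfsd2a at 10.48 (others 9.69 to 9.88) and for the mean of the barrier transport genes at 9.43 (others 9.15 to 9.20). Ts65Dn replicate 2 was low for Flt1 at 9.22 (others 9.31 to 9.33). Control replicate 5 was high for Slco1a4 at 9.88 (others 9.35 to 9.46), and control replicate 1 was low for App at 12.70 (others 12.83 to 12.87).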

How the results depend on the processing

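The count of 0 vessel genes past an adjusted p of 0.05 held in every limma fit run. The rank method gives no adjusted p. It named 5 vessel genes, where it named 2.91% of all transcript clusters as higher and 2.47% as lower. Eng stayed at an unadjusted p under 0.05 in every limma fit, with an adjusted p from 0.333 to 1.00. Rgs5 did not without Ts65Dn replicates 1, 3 or 5 or control replicates 1, 2 or 4, and Tagln did not with array weights, with the replicate block, or without Ts65Dn replicates 3, 4 or 5 or control replicates 3, 4 or 5. Of 719 estimates of single vessel genes, 25 changed sign, in 12 genes whose difference was at most 0.06. With array weights Mfsd2a was at -0.0232 (0.0184 without).

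Leaving out each mouse in turn gave 0 to 0 vessel genes past the adjusted threshold, 1 to 4 at an unadjusted p under 0.05 (1 without Ts65Dn replicate 3 or 5), 6 to 12 in the wider pathway lists and 3 to 6 of the 8 genes in 3 copies (3 without Ts65Dn replicate 2 or 4). The range was -0.0026 to 0.10 for Pecam1, -0.040 to 0.0898 for Cdh5, -0.0088 to 0.0421 for Tie1, -0.0334 to 0.0499 for Sox18, -0.0118 to 0.131 for Slco1c1, -0.121 to 0.0775 for Mfsd2a, -0.0453 to 0.0125 for Cspg4, -0.0384 to 0.0042 for Kcnj8, -0.0332 to 0.0209 for Abcc9, -0.0860 to 0.0427 for Anpep, -0.134 to 0.0212 for Vtn and -0.0512 to 0.0178 for Notch3. The median difference ranged from 0.0045 (without control replicate 4) to 0.09 in the endothelial group, from 0.01 (without Ts65Dn replicate 4) to 0.11 in barrier transport, and from -0.06 to -0.01 in pericytes and smooth muscle. The differences of the group means ranged from 0.04 to 0.10, from -0.0070 to 0.09 and from -0.07 to -0.02.

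When each mouse was summarised by its median endothelial gene, the endothelial difference was 0.13, and 0.06 by the mean. Among transcript clusters above the median signal, the wider pathway lists had 3 genes at an unadjusted p under 0.05 (8 without the filter). Of the 8, 4 were above the median and 3 of these kept an unadjusted p under 0.05, while Gucy1a1 went from 0.0495 to 0.0514. With the replicate number as a block, 0 vessel genes passed and 3 were at an unadjusted p under 0.05, all higher (Eng, Ocln and Rgs5). What a replicate number stands for is not given in the labels. Deviations of mice with the same number correlated at 0.51, 0.27, 0.32, 0.03 and 0.46 over transcript clusters, and 4 of the 5 Ts65Dn mice correlated best with the control of their number.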
